A study of Homo sapiens with 6 samples.

Results

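The RNAs described here are 10 listed transcripts that are now annotated as long non-coding or as pseudogenes: AHSA2, HGC6.3, LOC101927322, ADGRF2, C5orf64, C10orf111, ARIH2OS, C7orf71, C7orf77 and C1QTNF9B-AS1. They were taken by name from a table of 3152 RNAs that the authors called PD-L1 binding, and all 10 were found there. The table comes from RNA immunoprecipitation in MDA-MB-231, an established human triple-negative breast cancer cell line, in which an antibody to PD-L1 or its isotype IgG was used to pull protein and attached RNA out of formaldehyde-fixed, sonicated cells. There were 3 PD-L1 libraries and 3 IgG libraries, called repeats 1 to 3 in the labels, with no other treatment or genotype named, and nothing in the labels says that the repeats came from separate cultures. The values are sums of peak scores per gene and library, as the authors deposited them, so a gene without a scored peak stands at 0.

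PD-L1, the product of CD274, is a membrane protein known as the ligand of the T cell receptor PD-1, and the isotype IgG shows what RNA is recovered without that specificity. Long non-coding RNAs are transcripts with no established protein product. Many arise from the opposite strand of a coding gene or from the promoter it starts at, and they are named after it with the endings AS (antisense), OS (opposite strand) or DT (divergent transcript). A transcribed pseudogene is a gene copy or former gene that has lost an intact reading frame but still makes RNA.

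The 10 were thus chosen by the PD-L1 and IgG scores of these same 6 libraries, since the authors listed an RNA only when its PD-L1 score reached 5 times its IgG score. All 10 met this, or had IgG at 0, as did 100% of the listed RNAs, and the values below describe its size and spread with no test and no p-value. Over the whole table the summed scores ranged from 123921 to 217732 in the PD-L1 libraries and from 8353 to 19288 in the IgG libraries. These sums cover a selected list, and the sequencing depth is unknown. CD274 itself was listed, with PD-L1 scores of 10.5, 26.5 and 23.4 against IgG scores of 0, 2.83 and 4.63. Of 7 luminal or epithelial marker genes the table held 0, which in a selected list does not check the identity of the line.

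The annotations did not fully concur on what these RNAs are. RefSeq (GRCh38.p14) types 8 as long non-coding RNA and AHSA2 and ADGRF2 as transcribed pseudogenes. GENCODE 29 types 7 as non-coding or pseudogene and still counts ADGRF2, ARIH2OS and C7orf77 as protein-coding. In RefSeq 8 of the 10 now carry another symbol. AHSA2 is AHSA2P, ADGRF2 is ADGRF2P, LOC101927322 is MALT1-AS1, C10orf111 is RPP38-DT, C1QTNF9B-AS1 is PCOTH, and C5orf64, C7orf71 and C7orf77 are LINC03122, LINC02860 and LINC03043. The 10 do not exhaust their kind, since RefSeq types 21 of the listed RNAs as long non-coding or pseudogene. Of the 62 listed symbols that name a chromosome and an open reading frame, such as C7orf71, 56 are typed protein-coding and 5 non-coding, and 4 of those 5 are described here. The table held 0 of 38 names of well-known non-coding RNAs, MALAT1, NEAT1 and RMRP among them, and a few of the names are for the same RNA. It also held 0 symbols starting with LINC, SNHG, MIR or SNOR, so nothing about binding is read from these absences. RNAs outside the table were not analysed here.

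In 4 cases the gene begins opposite the start of a coding gene on the other strand. ARIH2OS lies against ARIH2, which encodes a ubiquitin ligase. C10orf111 faces RPP38, which encodes a subunit of the tRNA-processing enzyme RNase P. LOC101927322 lies against MALT1, which encodes a protease of NF-kappaB signalling, and C1QTNF9B-AS1 against MIPEP, which encodes a mitochondrial peptidase. The starts of C10orf111 and RPP38 are 36 bases apart with no overlap, while the partner's start lies 408 to 543 bases inside the other 3 non-coding genes in RefSeq. For C1QTNF9B-AS1 this holds from its first RefSeq start, and MIPEP begins 66 bases before its other start. ARIH2, RPP38, MALT1 and MIPEP were not among the listed RNAs. The sequences around the starts of the 3 such RNAs with IgG scores above 0 are shown because they are the stretches that these RNAs share with, or set against, an unlisted coding gene. Each runs 5′ to 3′ on the strand of the non-coding RNA, from 250 bases before its start in lower case to its first 50 transcribed bases in capitals, as given by RefSeq for GRCh38.p14.
ARIH2OS (chr3:48919336-48919635, minus strand): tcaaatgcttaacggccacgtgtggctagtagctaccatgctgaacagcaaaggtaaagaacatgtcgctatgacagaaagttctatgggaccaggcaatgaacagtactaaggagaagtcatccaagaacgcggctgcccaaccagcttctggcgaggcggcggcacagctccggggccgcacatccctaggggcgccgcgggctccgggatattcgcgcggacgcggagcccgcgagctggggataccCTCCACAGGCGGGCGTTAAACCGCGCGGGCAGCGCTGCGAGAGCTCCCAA
C10orf111 (chr10:15097270-15097569, minus strand): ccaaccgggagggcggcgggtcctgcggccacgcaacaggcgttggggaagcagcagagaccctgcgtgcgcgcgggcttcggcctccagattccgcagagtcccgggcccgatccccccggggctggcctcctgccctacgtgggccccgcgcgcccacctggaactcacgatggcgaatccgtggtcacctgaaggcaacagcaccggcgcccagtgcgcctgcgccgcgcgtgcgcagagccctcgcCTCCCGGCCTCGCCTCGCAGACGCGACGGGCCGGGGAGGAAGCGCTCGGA
LOC101927322 (chr18:58671824-58672123, minus strand): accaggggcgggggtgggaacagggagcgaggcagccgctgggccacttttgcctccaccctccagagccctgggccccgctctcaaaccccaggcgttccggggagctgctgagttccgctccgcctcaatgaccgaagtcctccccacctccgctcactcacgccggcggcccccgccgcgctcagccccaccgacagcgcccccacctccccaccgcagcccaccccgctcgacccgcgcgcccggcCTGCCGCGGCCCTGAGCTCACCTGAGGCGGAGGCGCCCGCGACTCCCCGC
All 300 bases of the ARIH2OS and LOC101927322 windows, and 215 of the C10orf111 window, lie within the partner gene as RefSeq draws it. The 3 windows were 61.3%, 74.7% and 75.7% G and C, against a median of 58.7% over all 35116 RefSeq windows of this kind, and held 28, 40 and 32 CpG dinucleotides against a median of 14. Windows were found for 8 of the 10 RNAs, 10 windows in all, and over these the medians were lower than over all RefSeq windows, at 50.3% and 9 CpG, so the 3 shown do not stand for the group. Those of C5orf64, C7orf71, C7orf77 and HGC6.3 held 40.7% to 50.0% G and C and 0 to 6 CpG.

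**Figure D1:**
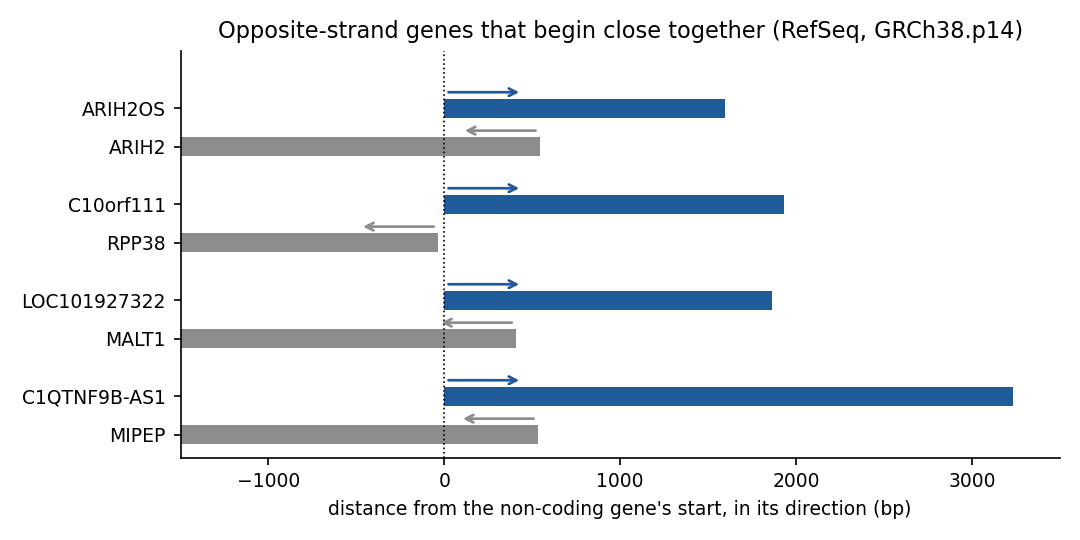
Map of the 4 non-coding genes (blue) and the coding genes on the other strand (grey), as bars against the distance in bases from the start of the non-coding gene, in its own direction; arrows give the direction of transcription and coding genes run on past the left edge. RPP38 begins 36 bases before C10orf111, whereas ARIH2, MALT1 and MIPEP begin 543, 408 and 532 bases inside their partners. C1QTNF9B-AS1 is drawn from its first RefSeq start, and MIPEP begins 66 bases before its other start.

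The libraries were stranded per the labels' protocols, but whether strand was used when peaks were assigned to genes is not given in the sources used here. A peak at these 4 starts could therefore belong to either gene, and its part in the scores was not tested.

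All 10 RNAs had every PD-L1 score above every IgG score, as did 95.9% of all listed RNAs, so nothing is read from the count. The highest sums belonged to AHSA2, the pseudogene relative of the HSP90 co-chaperone gene AHSA1. Its PD-L1 scores were 553.5, 663.5 and 279.9, and its IgG scores were 12.7, 35.0 and 20.3. Even the lowest PD-L1 library was far above the highest IgG library. The mean was 499 ± 198 (SD, n = 3) against 22.7 ± 11.3, a ratio of 22.0 and a difference of 4.42 on the log2(score + 1) scale.

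The receptor pseudogene ADGRF2, of the adhesion G protein-coupled receptor family, stood much closer to the control. Its PD-L1 libraries scored 112.9, 141.4 and 85.2, and its IgG libraries 6.95, 26.5 and 19.3. The ratio of means was 6.44 and the log2 difference 2.77. Without IgG repeat 1 the ratio was 4.94, below the authors' threshold. Its family member and neighbour ADGRF4 was not among the listed RNAs, nor were ADGRF1, ADGRF3 and ADGRF5.

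Among the RNAs set against a coding gene, LOC101927322 had the highest scores, at 210.1, 212.1 and 68.2 in the PD-L1 libraries against 2.42, 10.0 and 6.44 in the IgG libraries. The ratio of 25.96 was the highest of the 8 RNAs with an IgG score, and 84.3% of the 2152 listed RNAs with an IgG score had a lower one. C10orf111 scored 92.3, 103.5 and 50.5 with PD-L1. Its IgG libraries disagreed, with 0 in repeat 1 and 21.1 and 21.9 in repeats 2 and 3, and the log2 difference of 3.32 was 5.56 with a pseudocount of 0.01 in place of 1. The ratio of means, 5.73, was the lowest of the 8 and the nearest to the authors' threshold of 5, and it was 3.82 without IgG repeat 1 and 4.99 without PD-L1 repeat 2.

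ARIH2OS had PD-L1 scores of 39.0, 43.7 and 96.0 against IgG scores of 8.46, 8.49 and 9.78. The IgG libraries were nearly level and the PD-L1 libraries were not, with repeat 3 far above the others. The ratio of 6.69 fell to 4.64 when PD-L1 repeat 3 was left out, and the log2 difference of 2.50 was the smallest of the 10. C1QTNF9B-AS1 had the lowest scores, 11.9, 11.1 and 5.13 with PD-L1, and was listed at 0 in all 3 IgG libraries, so no fold is given.

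The remaining 4 are long non-coding RNAs that overlap no coding gene in RefSeq. HGC6.3, an uncharacterised RNA, had PD-L1 scores of 463.8, 415.7 and 128.0 against IgG scores of 16.6, 36.8 and 62.3. It had the highest IgG mean of the 10, 38.6 ± 22.9, against a PD-L1 mean of 336 ± 182, for a ratio of 8.71. Its lowest PD-L1 score, 128.0, and its highest IgG score, 62.3, were both in repeat 3. C5orf64 had PD-L1 scores of 159.5, 170.6 and 84.5 against IgG scores of 7.26, 27.0 and 26.8, for a ratio of 6.79. C7orf71 had PD-L1 scores of 34.1, 39.6 and 23.9 against IgG scores of 3.32, 5.40 and 2.32, for a ratio of 8.84. C7orf77 scored 48.4, 41.0 and 28.2 with PD-L1 and was listed at 0 in all 3 IgG libraries.

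**Figure D2:**
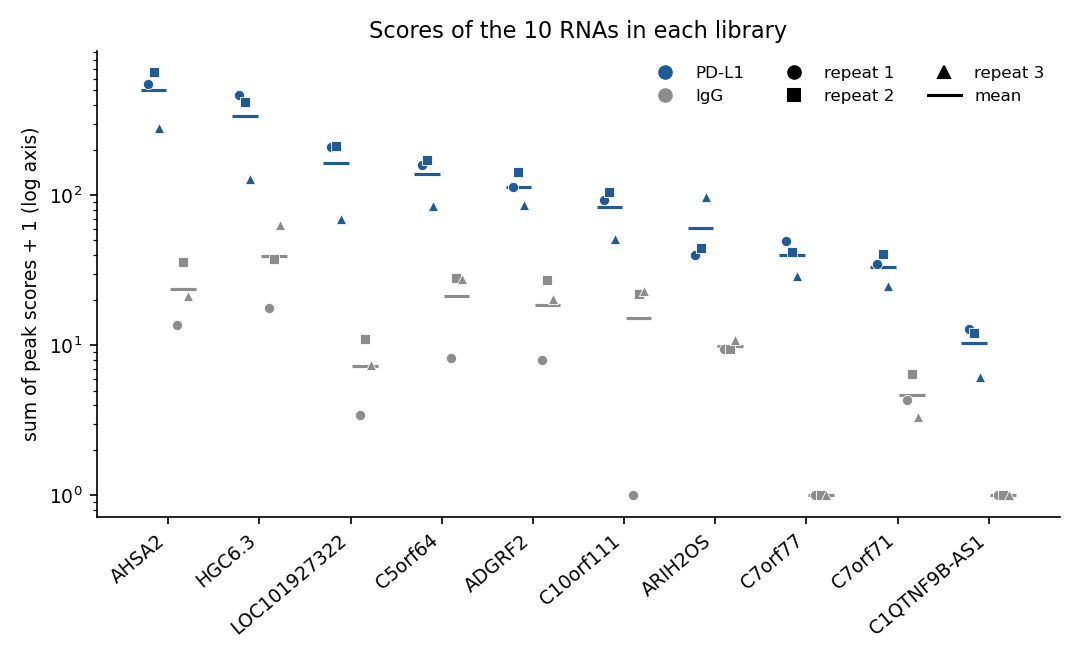
Sum of peak scores plus 1 (log axis) of each of the 10 RNAs in the 3 PD-L1 (blue) and 3 IgG (grey) libraries, with repeats 1, 2 and 3 as circles, squares and triangles and the group mean as a bar. In every RNA the PD-L1 points lie above the IgG points, and the triangle of PD-L1 repeat 3 is the lowest blue point except in ARIH2OS.

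The sign of these differences changes with how the library scores are scaled. With the authors' scores all 10 were higher with PD-L1. When every library was given an equal total, HGC6.3, ADGRF2, C5orf64, ARIH2OS and C7orf71 came out lower, at -0.50, -0.74, -0.68, -0.96 and -0.40 on the log2 scale. C10orf111 came out at 0.94, a value that depends on its IgG score of 0 in repeat 1, beside 21.1 and 21.9 in repeats 2 and 3. Equal totals moved the median of the whole table from 3.42 to 1.76, a shift of -1.66. The totals cover only RNAs listed for PD-L1 at least 5 times IgG, so equal totals also remove part of the difference used for listing. The sign changes therefore say nothing about sequencing depth. Relative to the table's median, 7 of the 10 lay below it as deposited and 8 with equal sums. With each library brought to the same median of its scores above 0, all 10 were above 0 and 7 lay below the table's median. Where each 0 was replaced by 1.81, the smallest score above 0 in the table, 4 lay below it.

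As a group the 10 had high scores with both antibodies. The median of their mean PD-L1 scores was 97.6, against 31.2 over the table, and 9 of the 10 were at or above that value. The median of their mean IgG scores was 11.6 against 1.72. Only C7orf77 and C1QTNF9B-AS1, 2 of 10 or 20%, were at 0 in all IgG libraries, a state shared by 31.7% of the listed RNAs. The median log2 difference was 3.19 against 3.42, and 3.09 against 3.05 where each 0 was replaced by that smallest score. With a pseudocount of 0.01 it was 3.84 against 7.15, so this comparison depends on how scores of 0 are treated. For the 8 RNAs with an IgG score the median ratio was 7.75, against 10.5 for the 2152 listed RNAs with one.

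The 11 other listed RNAs of these types were lower with both antibodies, with a median mean PD-L1 score of 15.2 and a median mean IgG score of 0.857, and 4 of them were at 0 with IgG throughout. The members were picked with results known, so this contrast within the class is a description of the choice and was not tested.

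**Figure D3:**
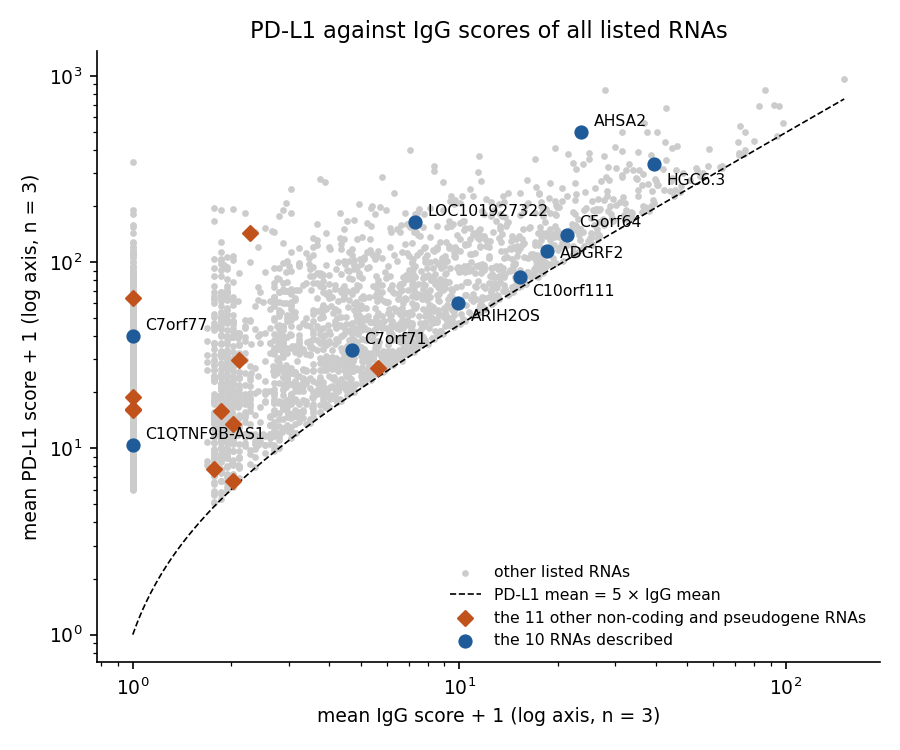
Mean PD-L1 score plus 1 against mean IgG score plus 1 (log axes, n = 3 libraries each) for all 3152 listed RNAs, with the 10 RNAs described in blue, the 11 other non-coding and pseudogene RNAs as orange diamonds, and a dashed line where PD-L1 is 5 times IgG. C5orf64, ADGRF2, C10orf111 and ARIH2OS lie near the line with ratios of 5.73 to 6.79, and AHSA2 and LOC101927322 lie farther above it.

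Because a sum of peak scores can grow with the length of a gene, levels were compared between genes per kilobase (kb) of the longest GENCODE 29 transcript, found for all 10 and for 3139 listed RNAs. Across these RNAs the mean PD-L1 score and transcript length had a Spearman correlation of 0.206, and score and gene span 0.185; the points share the same 3 libraries. The 10 are short and simply built. Their transcripts had a median of 1656 bases and 3.5 exons, against 4497 bases and 11 exons over the listed RNAs, and 8 were shorter than that median. HGC6.3 and ARIH2OS have 1 exon in these transcripts, and ADGRF2 has 11. The 7 other listed non-coding and pseudogene RNAs with a GENCODE transcript had medians of 2062 bases and 4 exons, so this build is not particular to the 10.

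Per kb of transcript HGC6.3 was highest, at 331 ± 179 (SD, n = 3), which placed it at rank 2 of the 3139. LOC101927322 followed at 135 ± 68.2, AHSA2 at 75.9 ± 30.05 and C7orf77 at 58.6 ± 15.3. C10orf111, C5orf64 and ARIH2OS lay at 47.9 ± 16.3, 46.5 ± 15.8 and 37.3 ± 19.8. ADGRF2, C7orf71 and C1QTNF9B-AS1 were lowest, at 22.1 ± 5.48, 16.6 ± 4.04 and 11.6 ± 4.59. In all 9 neighbouring pairs of this order the ranges over the 3 PD-L1 libraries overlapped, so neighbours in it were not separated beyond their spread. All 10 exceeded the median of 7.56 over the listed RNAs per kb of transcript. Scores followed length only weakly, so dividing by length lifts short transcripts. C1QTNF9B-AS1, with a transcript of 805 bases, had a mean score of 9.37, below the table's median of 31.2. The 7 other non-coding and pseudogene RNAs had a median of 8.64. The 10 were picked with results known, so this was not tested.

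Per kb of gene span, introns included, all 10 again exceeded the median, which was 0.603 over the listed RNAs and 0.700 over those 7 others. The order of the 10 changed. LOC101927322 and HGC6.3 were level at 87.5 and 87.2, and C10orf111, ARIH2OS and AHSA2 followed at 42.4, 37.1 and 36.2. C5orf64, whose gene spans 114 kb, dropped to 1.21, close to the 1.12 of C1QTNF9B-AS1. Where in each gene the peaks lay, in exons or introns, is not stated in the table or the labels, and neither scale can be preferred from the table.

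**Figure D4:**
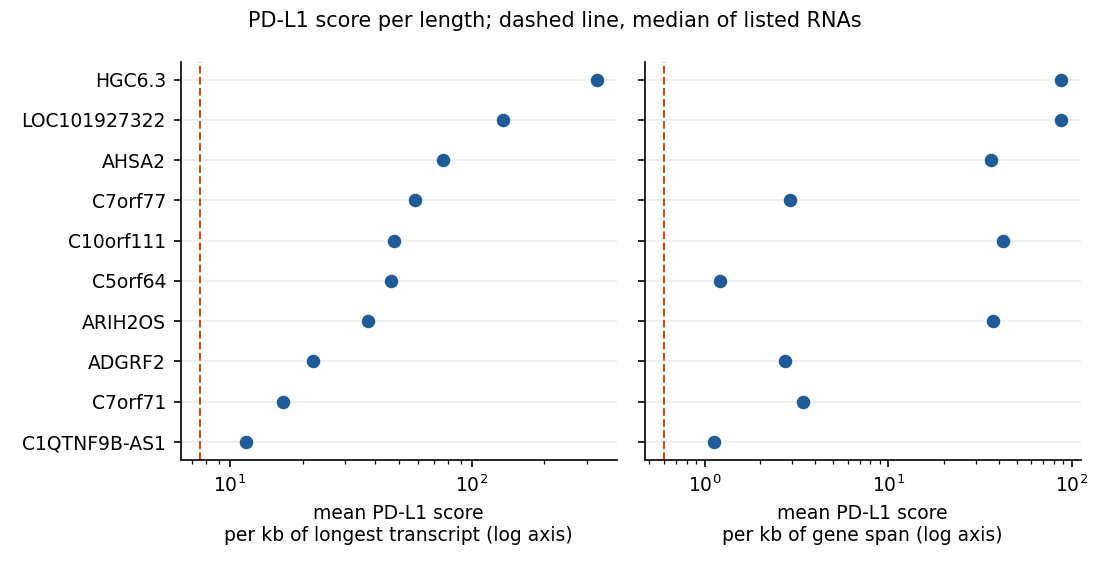
Mean PD-L1 score per kb of the longest transcript (left) and per kb of gene span (right), on log axes, for the 10 RNAs in the order of the left panel; the dashed lines mark the medians of 7.56 and 0.603 over the listed RNAs. Every point lies to the right of the line in both panels. C7orf77, C5orf64 and AHSA2 take a lower place among the 10 on the right than on the left. So, narrowly, does HGC6.3, at 87.2 against 87.5 for LOC101927322.

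The transcripts were also richer in G and C than most listed RNAs, with a median of 46.9% against 43.2%, and 8 of 10 were above that value. ARIH2OS (61.5%) and HGC6.3 (59.5%) were highest and C5orf64 (39.97%) was lowest. The 7 other non-coding and pseudogene RNAs had a median of 50.1%, so this too is not particular to the 10. The longest open reading frame of the 10, from ATG to the first stop codon on the transcribed strand, had a median of 146 codons. The median was 549 in listed protein-coding RNAs and 108 in those 7 others. The longest frame was 642 codons in ADGRF2 and 290 in ARIH2OS, which GENCODE 29 still counts as coding, but 90 in C7orf77, which it counts as coding too.

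PD-L1 repeats 1 and 2 gave similar scores and repeat 3 did not. The gap between repeats 1 and 2 was 0.947% to 22.4% of their mean, with a median of 11.4% against 14.5% over the table. Repeat 3 was below both others in 9 of the 10 RNAs, against 63.8% of the listed RNAs, and had a median of 51.4% of the mean of repeats 1 and 2 against 71.5%. HGC6.3 and LOC101927322 were lowest, at 29.1% and 32.3%. ARIH2OS alone went the other way, at 232%, as did 23.9% of the listed RNAs, whose repeat 3 was above both others. A single library against 2 allows no test.

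**Figure D5:**
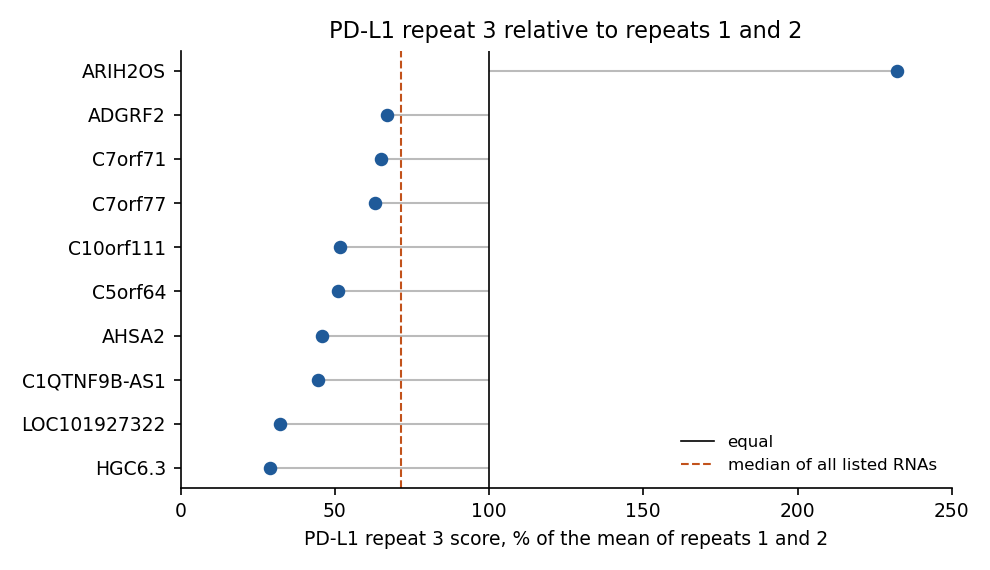
Score of each RNA in PD-L1 repeat 3 as a percentage of its mean in repeats 1 and 2, with a solid line at equality and a dashed line at the median of all listed RNAs, 71.5%. ARIH2OS lies at 232% and the other RNAs between 29.1% and 67.0%.

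Among the IgG libraries repeat 1 was the lowest in 7 of the 8 RNAs with an IgG score, against 53.6% of such RNAs in the table. An RNA at 0 in both repeat 1 and another repeat cannot enter this count, so the shares are not directly comparable. ARIH2OS enters it only by 8.46 against 8.49. C7orf71 was the exception, with its lowest score in repeat 3. IgG repeat 1 also had the smallest sum over the listed RNAs, 8353 against 18823 and 19288, and its part in the ratios was not tested beyond leaving it out.

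Of 25 coding genes that overlap one of the 10 or are the nearest on either side in RefSeq, 5 (20%) were in the table, near the 15.6% listed among all 20056 coding genes of the RefSeq table used here. Of these 5 neighbours, 3 lie at AHSA2. USP34, a deubiquitinase gene that overlaps AHSA2, had PD-L1 scores of 506.2, 567.1 and 46.2 against IgG scores of 49.9, 89.2 and 74.3. Its PD-L1 repeat 3 lay below all 3 of its IgG scores, whereas that of AHSA2 was well above its own. Reads in the overlap, and reads that AHSA2 shares in sequence with AHSA1, may be split between genes in a way the scores do not show. The nuclear export receptor gene XPO1 scored 119.9, 110.3 and 51.9 with PD-L1, and C2orf74 scored 2.22, 5.26 and 12.6. ZNF532, a zinc finger gene near LOC101927322, had PD-L1 scores of 38.2, 40.1 and 40.9, and ZSWIM6, beside C5orf64, had 17.8, 33.9 and 28.9. Of the 5 coding genes that overlap a member, USP34 was listed and ARIH2, MALT1, MIPEP and C1QTNF9B were not. Of 23 partner and parent genes looked up by name, AHSA1 and the HSP90 genes HSP90AA1 and HSP90AB1 among them, 6 were listed, namely USP34, XPO1, ZSWIM6, ARIH1, PRKAR2A and ZNF800.

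The listed RNAs closest in pattern were protein-coding, as were 99.2% of all listed RNAs, so nothing is read from their type. By Euclidean distance of log2(score + 1) over the 6 libraries, AHSA2 was nearest to TAF1, RAPGEF6 and WDSUB1, at distances of 1.08, 1.18 and 1.32. TAF1 had PD-L1 scores of 471.3, 497.3 and 188.5 against IgG scores of 14.8, 25.5 and 31.7. The median profile of the 10 was nearest to HIPK3, TRAF3 and RPRD2, at 0.389, 0.571 and 0.634.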

How the data were processed

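RNA from 3 PD-L1 and 3 IgG immunoprecipitations of MDA-MB-231 cells was sequenced. Per the file headers, the deposited values are a score for each gene and library, the sum of the scores of its peaks. TopHat2 2.0.14, HOMER 4.8.3 and the hg19 build appear in the submitters' processing notes, without roles. Peak settings, scaling and depth: not given in the sources used here, so no interval is printed. Members and lists were chosen with earlier results of these data known, and the rule for named RNAs took all 10 members, their partner, overlapping and nearest coding genes, CD274, the other non-coding RNAs and the nearest patterns.

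Groups were described by each library's score, the mean and SD, the ratio of means and the difference of mean log2(score + 1), computed with Python 3.11.15 and pandas 2.3.3, with no filter on low scores and no test. These steps were tested on simulated data. Names, types and neighbours came from RefSeq (GRCh38.p14) by Entrez identifier, which matched all 10 members, and transcripts from GENCODE 29, also GRCh38. The authors' build was hg19, so no coordinates were joined. Alternatives were other pseudocounts, 2 rescalings, replacement of scores of 0, a filter and leaving out each library. A list of marker genes of the cell line is not reported here.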

Additional observations from a re-analysis of the deposited data

How the results depend on the processing

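When every library was given an equal total, the median log2 difference of the 10 RNAs was 0.24 in place of 3.19, 4 in place of 10 had PD-L1 scores wholly above IgG, and 0 in place of 8 had a ratio of at least 5. The share of all listed RNAs with PD-L1 scores wholly above IgG was then 39.0% in place of 95.9%. HGC6.3 (-0.50), ADGRF2 (-0.74), C5orf64 (-0.68), ARIH2OS (-0.96) and C7orf71 (-0.40) then reversed. How many of all listed RNAs reversed or kept a ratio of at least 5 was not counted, so nothing is read from those counts. With equal medians of the scores above 0 the values were 1.15, 5 and 0, and 55.6% of all listed RNAs had PD-L1 wholly above IgG. Both rescalings remove a difference between libraries in total or median score. The median log2 difference over all listed RNAs was then 1.76 with equal totals and 2.18 with equal medians, in place of 3.42. Whether the removed difference comes from the antibody or from library size cannot be told apart here. Dropping RNAs whose mean PD-L1 score was under the table's median left 1 RNA at 0 with IgG. With 1 library left out the median ranged from 2.71 to 3.64, separation stayed at 10, and a ratio of at least 5 held for 6 to 8 RNAs. Of all listed RNAs, 96.1% to 98.0% were then separated. How many of them kept a ratio of at least 5 was not counted, so nothing is read from the 6 to 8. The median over all listed RNAs ranged from 3.18 to 3.61. Without PD-L1 repeat 3 the 10 lay at 3.64 against 3.61 for all listed RNAs. Pseudocounts of 0.1 and 0.01 gave medians of 3.805 and 3.84, against 5.39 and 7.15 over all listed RNAs. They moved C7orf77, C1QTNF9B-AS1 and, at 0.01, C10orf111, which have scores of 0 with IgG, by more than the spread. Of the single-RNA values under an alternative, 25 could not move by construction. Of the rest, 78 moved by less than the spread between replicates, 21 by more, and 5 reversed.

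Deviations of same-numbered libraries had correlations of -0.121, 0.071 and -0.079 across 3152 RNAs. Of these RNAs 1000 were at 0 in all IgG libraries, and the list was selected. These values therefore cannot decide whether same-numbered libraries were paired. Taking differences within numbers (a replicate block) gives the same median, 3.19, by construction, and says nothing about pairing. No paired analysis was possible because the results come from no test.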

Other observations

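Among the 11 other listed non-coding and pseudogene RNAs, LOC643802, now named MPHOSPH10P1 and a pseudogene of a gene for a ribosomal RNA processing factor, had the highest scores, at 140.1, 157.7 and 131.3 in the PD-L1 libraries against 0, 0 and 3.86 in the IgG libraries. LOC100505549, now ATP8B1-AS1, scored 68.4, 76.7 and 43.9 with PD-L1 and was listed at 0 with IgG throughout. NXF5, a pseudogene of the nuclear RNA export factor family, scored 17.2, 16.5 and 19.8 with PD-L1, again with IgG at 0. In C17orf51, now LINC02693, the groups overlapped, with PD-L1 scores of 2.42, 7.80 and 6.73 and IgG scores of 0, 0 and 3.09. A further 5 listed RNAs, OCLM, TMEM133, SLCO1B7, C2orf48 and KIAA1107, had no entry in the RefSeq table used here, and their type was not assessed.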
